A study of Mus musculus with 2 samples.

Results

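The genes described here are 33 genes of glycolysis and of the response to low oxygen, taken by name as listed, of 32285 genes in the count tables, and each of the 33 had at least 1 UMI (a counted RNA molecule) in both libraries. They were followed across the 10 coarser and 15 finer clusters that came with the deposited cells, and between a wild type library and a library labelled as E4BP4 transgenic. The cells were live CD45+ (white blood) cells sorted from the lamina propria of the colon, the connective layer under the epithelium, and their RNA was read cell by cell in droplets with a method that tags the 5′ end of each RNA. All mice were 8-week-old C57BL/6 animals and had been given 2.0% dextran sulphate sodium (DSS), a polymer that injures the colon epithelium, in their drinking water for 7 days, then plain water for 7 days, and were killed on day 14, in the recovery phase. No group without DSS was analysed here. The transgenic mice are described as overexpressing E4BP4, a transcription factor encoded by Nfil3, specifically in macrophages, but neither the promoter nor the number of animals behind a library is given in the sources used here.

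Glycolysis splits glucose into pyruvate in the cytosol and yields ATP without oxygen, and lactate dehydrogenase turns pyruvate into lactate so that the pathway can go on. When oxygen is low, the prolyl hydroxylases that mark HIF-1 alpha for destruction stop working, and the stabilised factor switches on glucose transporters, most glycolytic enzymes, lactate export, mitochondrial clearance and its own prolyl hydroxylases. In inflamed colon, where oxygen is scarce and invading myeloid cells burn much of it, activated monocytes, macrophages and neutrophils are known to lean on glycolysis. HIF-1 alpha is controlled mostly as a protein, so the level of its RNA, Hif1a, is not a measure of its activity.

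With 1 library per genotype, no difference could be tested across animals, and genotype cannot be told apart from animal, sort or library preparation. Each ratio below is the level in the library labelled transgenic over that in wild type, and its 95% interval covers counting error only. Counts were expressed as counts per 1000000 UMIs of the cells pooled (CPM), and because each molecule is tagged once at its end, CPM of different genes can be set side by side without a length correction. The deposited cells numbered 6466 in wild type and 7026 in the library labelled transgenic, with median depths of 2700.0 and 2427.5 UMIs per cell, and 67 cell barcodes occurred in both libraries. Nfil3 itself was not raised in the library labelled transgenic: its level was 84.4 and 73.8 CPM in macrophage-like cells, a ratio of 0.874 (0.724 to 1.06), and 272.1 and 235.1 CPM in monocyte-like cells, a ratio of 0.864 (0.778 to 0.959). Nfil3 thus goes against the label, whether RNA of the transgene would be counted as Nfil3 is not given in the sources used here, and every direction below is that of the library labelled transgenic.

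In wild type, 23 of the 33 genes had their highest level in the same finer cluster, number 11. This monocyte-like cluster of 217 wild type and 51 transgenic-labelled cells is led by Arg1, Nos2 and Saa3, and its name rests on 7 of 10 monocyte markers raised at least 2-fold, with 0 among its leading genes. The 33 genes together took up 17405.6 CPM there, against 6535.1 CPM in the larger monocyte-like cluster 3, 10038.1 CPM in the neutrophil-like cluster 5 and 3161.1 CPM in the macrophage-like cluster 1. Clusters were built from all genes of these cells, the 33 included, so levels across clusters are a description. In the library labelled transgenic 12 of the 33 peaked in cluster 11, and 9 peaked in cluster 13, the small epithelial-like cluster, and 6 in the neutrophil-like cluster 5. A peak here is the highest value alone, without regard to counting error. Clusters 11 and 13 held 51 and 53 cells of that library, and some peaks were close. Gpi1, for example, was 326.0 CPM in cluster 13 and 318.0 CPM in cluster 14, so part of the drop from 23 to 12 may be counting error.

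The order of the clusters differed from gene to gene. Gapdh, the glyceraldehyde phosphate dehydrogenase, was the most abundant of the set in wild type cluster 11, at 2096.5 CPM, followed by Pkm, which makes pyruvate, at 2085.9 CPM, so this pair lay within counting error of each other. The transporters divided by cell type. Slc2a1, a glucose importer, was highest in cluster 11 in both libraries, at 292.9 and 150.9 CPM, while Slc2a3, its high-affinity relative, was highest in neutrophil-like cluster 5, at 252.5 and 252.6 CPM, and had 0 UMIs in wild type cluster 11. Slc16a3, which exports lactate, peaked in cluster 5 at 1214.6 and 1045.8 CPM, with cluster 11 next at 489.7 and 234.7 CPM. Pfkfb4, a bifunctional enzyme that sets the activator of phosphofructokinase, also peaked in cluster 5, at 71.8 and 105.8 CPM, whereas its relative Pfkfb3 peaked in cluster 11, at 285.3 and 100.6 CPM. Fibroblast-like cluster 12 was highest for P4ha2, a collagen prolyl hydroxylase, at 75.5 and 21.3 CPM, and Ak4, a mitochondrial adenylate kinase, never reached 20 UMIs over both libraries in a coarser cluster.

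**Figure D1:**
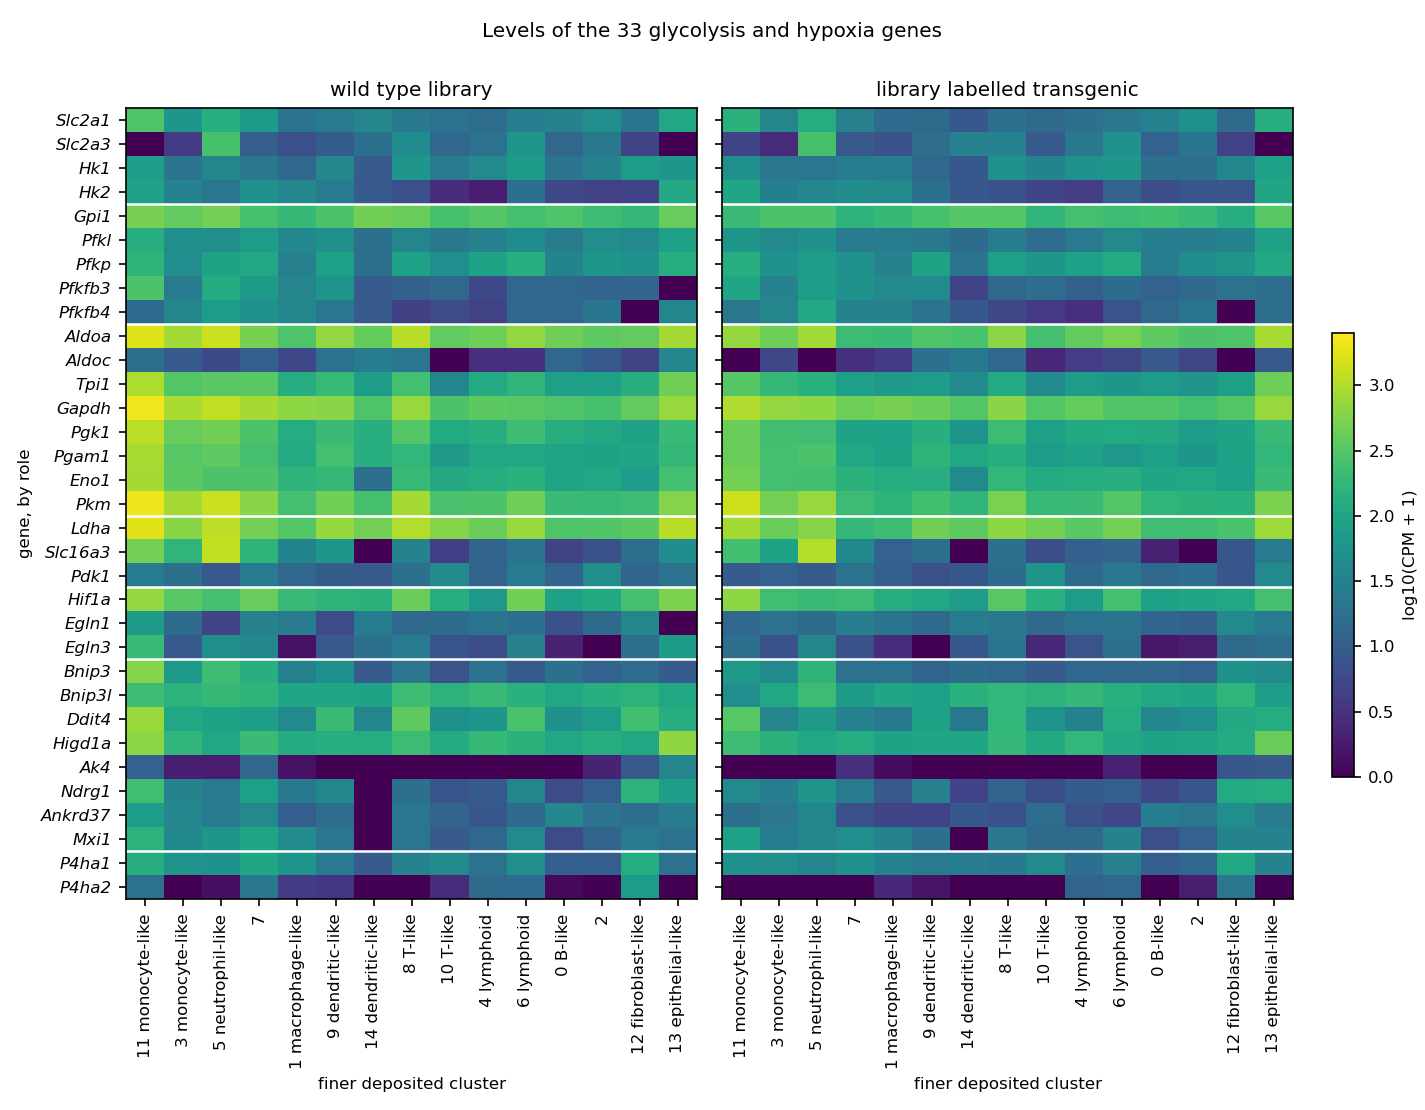
Level of each of the 33 genes (vertical axis, grouped by role) in each finer cluster (horizontal axis), as log10(CPM + 1), in wild type (left) and in the library labelled transgenic (right). The bright column of monocyte-like cluster 11 in wild type is dimmer in the other library. By highest value alone, counting error aside, 23 and 12 genes peak there. Slc2a3 and Slc16a3 are brightest in neutrophil-like cluster 5 in both.

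Hexokinases, which trap glucose in the cell, also divided by cell type. Hk1 made up 93.6% (86.6 to 97.6) and 91.4% (85.7 to 95.3) of the Hk1, Hk2 and Hk3 molecules in coarser lymphoid cluster 4, which is led by Gzma, Il17a and Xcl1. Hk2 was the most frequent in monocyte-like cells, at 45.5% (40.9 to 50.1) and 39.5% (32.5 to 46.8), and Hk3 in neutrophil-like cells, at 53.4% (47.5 to 59.2) and 20 of 40 molecules (33.8% to 66.2%). Intervals on shares are exact Clopper-Pearson intervals. Slc2a3 made up 64.5% and 68.3% of the Slc2a1 and Slc2a3 molecules in neutrophil-like cells and 1.73% and 4.55% in monocyte-like cells. In dendritic-like cells, by contrast, the hexokinase shares differed between the libraries, with Hk1 at 64.7% (46.5 to 80.3) and 32.7% (19.9 to 47.5).

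Many of these genes are textbook targets of HIF-1, which binds the short sequence ACGTG in hypoxia response elements; read on the opposite strand, this motif appears as CACGT. RefSeq promoter windows of GRCm38.p6, the 250 bases before an annotated start, were found for 30 of the 33 genes, and 19 of the 30 (63.3%) held ACGTG on either strand in at least 1 window. Over all genes with a window the share was 4998 of 27025 (18.5%), and over genes with at least 20 UMIs in the deposited cells it was 2628 of 10708 (24.5%). Some genes have several windows, and among those with exactly 1 the shares were 13 of 20 (65.0%) for the set and 3721 of 22862 (16.3%) for all genes. A match is a match of letters and not a binding site. Windows of 6 genes are printed because they span the behaviours described below: Bnip3, Egln3 and P4ha1, with low ratios in monocyte-like cells, Pgk1 as a glycolytic enzyme, Hk2 as a gene with the motif whose ratio was within the limits used below, and Gpi1 as a gene without it. Capitals mark the motif on either strand, and positions count back from -1, the base just before the start.

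Bnip3: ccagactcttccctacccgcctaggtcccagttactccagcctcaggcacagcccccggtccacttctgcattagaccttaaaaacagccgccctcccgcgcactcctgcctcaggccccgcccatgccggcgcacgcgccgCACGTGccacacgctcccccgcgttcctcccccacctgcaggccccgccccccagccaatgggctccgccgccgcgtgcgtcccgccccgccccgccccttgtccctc
Egln3: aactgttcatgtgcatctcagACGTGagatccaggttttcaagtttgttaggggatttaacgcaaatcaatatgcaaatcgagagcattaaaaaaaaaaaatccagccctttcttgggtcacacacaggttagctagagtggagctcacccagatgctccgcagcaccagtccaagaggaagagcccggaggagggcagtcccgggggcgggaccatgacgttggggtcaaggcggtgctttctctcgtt
P4ha1: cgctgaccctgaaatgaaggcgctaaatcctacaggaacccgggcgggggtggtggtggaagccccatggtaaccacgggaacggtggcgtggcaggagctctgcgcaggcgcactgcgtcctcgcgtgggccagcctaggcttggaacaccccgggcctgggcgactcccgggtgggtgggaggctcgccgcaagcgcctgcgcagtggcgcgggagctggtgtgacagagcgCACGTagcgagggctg
Pgk1: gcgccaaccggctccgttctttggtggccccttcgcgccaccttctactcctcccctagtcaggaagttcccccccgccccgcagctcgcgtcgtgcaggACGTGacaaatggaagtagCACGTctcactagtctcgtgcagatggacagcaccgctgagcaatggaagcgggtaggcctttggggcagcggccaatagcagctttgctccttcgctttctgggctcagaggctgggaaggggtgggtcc
Hk2: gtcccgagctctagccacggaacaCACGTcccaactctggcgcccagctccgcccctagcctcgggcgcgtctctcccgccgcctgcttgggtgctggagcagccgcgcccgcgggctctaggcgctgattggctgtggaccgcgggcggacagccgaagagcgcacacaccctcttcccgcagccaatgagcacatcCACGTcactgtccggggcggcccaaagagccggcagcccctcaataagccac
Gpi1: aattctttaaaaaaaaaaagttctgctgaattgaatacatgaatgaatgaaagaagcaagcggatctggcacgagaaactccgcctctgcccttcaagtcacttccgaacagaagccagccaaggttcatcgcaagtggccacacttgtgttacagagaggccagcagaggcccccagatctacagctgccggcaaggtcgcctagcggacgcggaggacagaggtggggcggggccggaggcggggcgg

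The Bnip3 window is chr7:138909507-138909756 on the minus strand, at the 5′ edge of the gene at chr7:138890836-138909519, and its CACGTG is 1 palindrome that holds overlapping matches at -108 and -107. The Egln3 window is chr12:54203875-54204124, minus strand, just upstream of the gene at chr12:54178981-54203860, with a match at -229. The P4ha1 window is chr10:59323046-59323295, plus strand, with a match at -16, directly before the gene at chr10:59323296-59373304. The Pgk1 window is chrX:106186850-106187099, plus strand, directly before the gene at chrX:106187100-106203699, and has a match on each strand, at -150 and -131. The Hk2 window is chr6:82774455-82774704, minus strand, directly before the gene at chr6:82725025-82774454, with matches at -226 and -52. The Gpi1 window is chr7:34230337-34230586, minus strand, directly before the gene at chr7:34201330-34230336, with none.

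In monocyte-like cells nearly the whole set was lower in the library labelled transgenic. These were 814 wild type and 437 transgenic-labelled cells of 1 coarser cluster. Of the 31 genes with at least 20 UMIs over both libraries, 26 had a ratio of 1/1.5 or less and 0 had a ratio of 1.5 or more. Over all 9302 genes counted the same way, 9.05% were that much lower and 14.9% that much higher. The median log2 ratio was -0.97 for the set and 0.08 for all genes. The summed level of the 33 genes was 9650.4 CPM in wild type and 4699.9 CPM in the other library, a ratio of 0.487. The genes that stayed between the limits were Hk1, Hk2, Pfkp, Pfkfb4 and Egln1.

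At the entry to the pathway in monocyte-like cells, Slc2a1 was 126.5 CPM in wild type and 48.5 CPM in the other library, a ratio of 0.383 (0.308 to 0.473). Hk2, by contrast, was 47.1 and 34.6 CPM, a ratio of 0.735 (0.557 to 0.961), and Hk1, the housekeeping hexokinase, 36.7 and 24.5 CPM. The step that commits sugar to glycolysis showed an equally uneven picture. Pfkfb3, whose product activates phosphofructokinase, was 98.5 and 35.6 CPM, a ratio of 0.361 (0.280 to 0.461), whereas Pfkfb4 was 29.6 and 34.2 CPM, a ratio of 1.16 (0.858 to 1.55). Pfkfb3 made up 76.0% (72.3 to 79.4) and 50.3% (42.1 to 58.5) of the molecules of the pair. Pfkl, a phosphofructokinase subunit, had a ratio of 0.548 and Pfkp, another, a ratio of 0.80. Gpi1, the isomerase that acts between hexokinase and phosphofructokinase, was 412.8 and 274.4 CPM, a ratio of 0.665 (0.605 to 0.729), just past the limit.

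All 8 enzymes of lower glycolysis, from aldolase to pyruvate kinase, were lower in the monocyte-like cells of the library labelled transgenic, and their summed level was 5711.4 against 2740.1 CPM. Tpi1, the triose phosphate isomerase, was 504.1 and 194.9 CPM, a ratio of 0.387 (0.348 to 0.429). Pgk1, which makes the pathway's earliest ATP, was 606.4 and 250.8 CPM, a ratio of 0.414 (0.377 to 0.454). Aldoa, the main aldolase of blood cells, was 1108.7 and 469.3 CPM, a ratio of 0.423 (0.395 to 0.453). Gapdh, often taken as a reference gene, was 1261.6 and 718.3 CPM, a ratio of 0.569 (0.538 to 0.602), and Pkm 1221.4 and 575.1 CPM, a ratio of 0.471 (0.442 to 0.501). Pgam1, Eno1 and Aldoc, a mutase, an enolase and the minor aldolase, had ratios of 0.538, 0.519 and 0.407.

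The lactate arm and the hypoxia-induced genes were lower as well, the latter by most. Ldha, a subunit of lactate dehydrogenase, was 948.2 and 482.7 CPM, a ratio of 0.509 (0.475 to 0.545), and Slc16a3 261.0 and 106.2 CPM, a ratio of 0.407 (0.352 to 0.469). Bnip3, which tags mitochondria for removal, was 220.3 and 40.2 CPM, from 991 and 87 UMIs, a ratio of 0.182 (0.145 to 0.227). Its relative Bnip3l had a ratio of 0.553, so Bnip3 was 56.1% of the pair's molecules in wild type and 29.7% in the library labelled transgenic. Egln3, an oxygen-sensing hydroxylase that HIF itself induces, was 62.7 and 5.54 CPM, from 282 and 12 UMIs, a ratio of 0.0884 (0.0452 to 0.157), while Egln1, the main HIF hydroxylase, was 28.9 and 19.9 CPM. Hif1a was 431.2 and 276.7 CPM, a ratio of 0.642 (0.584 to 0.704).

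The remaining stress genes lay between these. Ddit4, an inhibitor of mTORC1, was 303.9 and 81.8 CPM, a ratio of 0.269 (0.229 to 0.315), and Ndrg1, a stress-response gene, 88.0 and 30.9 CPM, a ratio of 0.352 (0.267 to 0.456). Ankrd37, Mxi1 (a MYC antagonist), Pdk1 (a kinase that inhibits pyruvate dehydrogenase) and Higd1a (a mitochondrial hypoxia protein) had ratios of 0.404, 0.444, 0.513 and 0.532. P4ha1, which hydroxylates collagen, had a ratio of 0.612. P4ha2 had 23 UMIs in wild type and 0 in the library labelled transgenic, at least 3.69-fold lower against a floor of 3 counts in that group, and Ak4 had 16 and 0, at least 2.57-fold lower. Thus each of the 7 hypoxia-induced mitochondrial and stress genes with enough UMIs was at or under the lower limit.

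**Figure D2:**
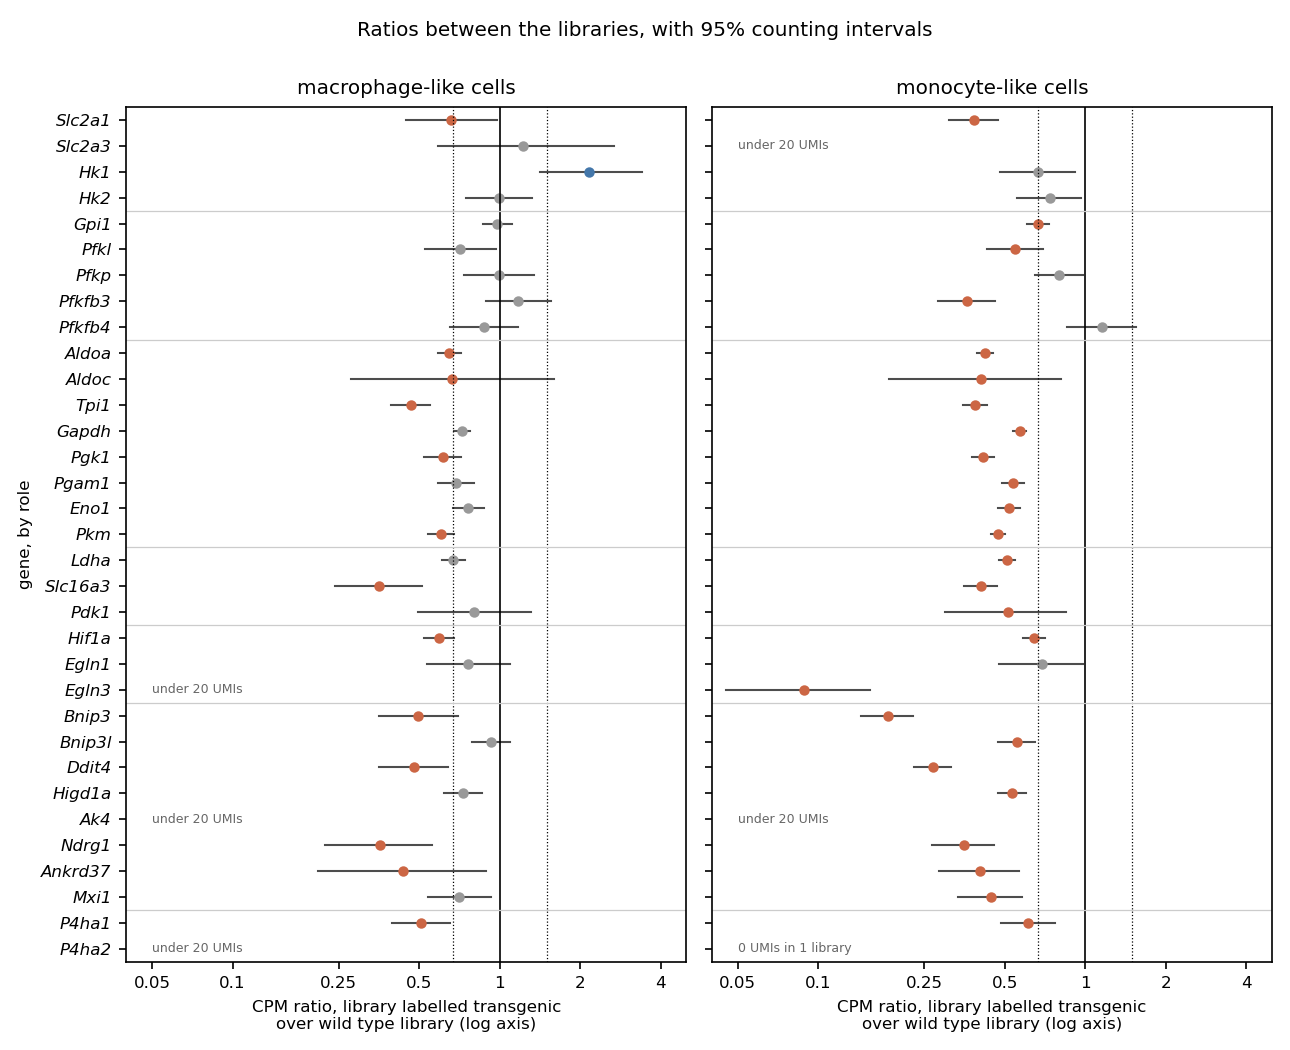
Ratio of CPM in the library labelled transgenic over wild type for each gene (vertical axis, by role) in macrophage-like (left) and monocyte-like (right) cells, on a log axis with 95% counting intervals; red points are at or under 1/1.5, blue at or over 1.5 (dotted lines), grey between. In monocyte-like cells 26 of 31 genes are at or under 1/1.5 and 0 are blue. P4ha2 is among the 26 but has no point, as its 0 UMIs in 1 library are given in words. In macrophage-like cells 13 of 30 are red and Hk1 alone is blue.

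Transcripts of other cell types moved with these differences. The 10 neutrophil markers summed to 2453.9 CPM in wild type monocyte-like cells and 143.7 CPM in those of the library labelled transgenic, with 9 of 10 lower and Camp at 0 in the latter. Those sums were 0.939% and 0.137% of the sums in neutrophil-like cells. Neutrophil-like RNA mixed in at such shares would bring 11.4 and 1.48 CPM of Slc16a3, 2.07 and 0.225 CPM of Bnip3 and 0.460 and 0.0499 CPM of Egln3, against measured levels of 261.0 and 106.2, 220.3 and 40.2, and 62.7 and 5.54 CPM. The monocyte markers themselves summed to 7313.8 and 5903.2 CPM, with 4 of 10 at or under the lower limit. Dendritic markers summed to 147.8 and 590.3 CPM (8 of 10 higher, Siglech at 0 in wild type), T cell markers to 17.1 and 73.9 CPM (10 of 10 higher) and macrophage markers to 4507.1 and 5724.5 CPM (6 of 12 higher), and their part in the ratios was not tested.

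The monocyte-like cells are not uniform, and the make-up of the class differed. Finer cluster 11 made up 24.8% (202 of 814) of the wild type cells and 11.4% (50 of 437) of those in the library labelled transgenic, while finer cluster 3 made up 71.6% and 76.9%. The dendritic-like finer cluster 9 made up 2.21% (18 of 814) and 10.5% (46 of 437). Within wild type the set was far higher in cluster 11 than in cluster 3: 27 of 31 genes were at least 1.5-fold higher and 1, Pfkfb4, at least that much lower. Over all 8472 genes 12.6% were that much higher and 42.4% that much lower. Among genes counted, the largest ratios of cluster 11 over 3 in wild type were those of Egln3, 23.9 (16.0 to 36.9), Pfkfb3, 11.3 (8.89 to 14.5), Bnip3, 8.85 (7.62 to 10.3), and Ddit4, 7.19 (6.37 to 8.14). P4ha2 had 0 UMIs in cluster 3 and 24 in cluster 11, at least 19.7-fold higher. Hif1a differed less, at 2.10, as did Aldoa at 2.00 and Gapdh at 2.25.

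In the library labelled transgenic the same step from cluster 3 to 11 was present for part of the set. Of 28 genes counted, 19 were at least 1.5-fold higher in cluster 11 and 2, Pfkfb4 and Bnip3l, at least that much lower, where 16.2% and 35.4% of all 7016 genes were. Ddit4 (9.74, 6.90 to 13.8), Slc2a1 (4.44), Hk2 (3.58), Mxi1 (3.4) and Pfkfb3 (3.27) had high ratios. Bnip3 had a ratio of 1.68 (0.913 to 2.91) and Egln3 of 2.82 (0.656 to 9.53, from 4 UMIs in cluster 11). The intervals of Bnip3 and Egln3 lie below those in wild type, and this difference between steps has no replicate to test it on.

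Setting the libraries against each other inside cluster 11 gave 27 of 31 genes with a ratio of 1/1.5 or less and 1, Pfkfb4, with 1.5 or more, where 19.0% and 23.6% of all genes were. The 27 include Aldoc and P4ha2, which had 0 UMIs in the library labelled transgenic and whose counts do not show a difference of 1.5-fold, as their bounds of 1.26-fold and 1.44-fold lower are smaller. The median log2 ratio of the set was -1.25, or -1.11 with genes at 0 put at their bound, and that of all genes was 0.11. Bnip3 was 604.7 and 67.1 CPM, from 799 and 16 UMIs, a ratio of 0.111 (0.0631 to 0.181), and Egln3 198.3 and 16.8 CPM, from 262 and 4 UMIs, a ratio of 0.0845 (0.0229 to 0.219). Ndrg1 (0.185), Egln1 (0.179) and Bnip3l (0.212) were also far lower. Hif1a, however, was 698.6 and 666.4 CPM, a ratio of 0.954 (0.801 to 1.13), and Hk2 90.1 and 100.6 CPM, a ratio of 1.12 (0.689 to 1.74). The promoter windows of Bnip3, Egln3 and Hk2 hold ACGTG, with ratios of 0.111, 0.0845 and 1.12, and those of Tpi1 and Higd1a do not, with ratios of 0.325 and 0.347. These genes are examples, and whether ratios differed with the motif over the whole set was not tested.

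The glycolytic enzymes of cluster 11 lay between these extremes. Pgk1 was 1115.6 and 431.7 CPM (0.387), Tpi1 968.0 and 314.3 CPM (0.325), and Gapdh 2096.5 and 993.3 CPM (0.474). Ldha was 1745.3 and 876.0 CPM (0.502) and Pkm 2085.9 and 1366.3 CPM (0.655). Slc2a1 was 292.9 and 150.9 CPM, a ratio of 0.515 (0.355 to 0.726). Aldoc had 21 and 0 UMIs and P4ha2 24 and 0. Neutrophil markers summed to 3820.6 and 121.5 CPM in cluster 11, which as a share of neutrophil-like cells would carry 3.22 and 0.190 CPM of Bnip3. The cluster held only 51 cells of the library labelled transgenic, and their 16 Bnip3 UMIs came from 13 cells.

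In the larger cluster 3 the differences were smaller and reached fewer genes. There 11 of 30 were at least 1.5-fold lower and 0 higher, where 8.84% and 11.9% of all genes were, and the median log2 ratio was -0.55 against 0.02. Those 11 were Slc2a1, Aldoa, Aldoc, Tpi1, Pgk1, Pkm, Slc16a3, Bnip3, Ankrd37, Ddit4 and Pdk1. Ddit4 was the furthest, at 108.6 and 34.0 CPM, a ratio of 0.313 (0.236 to 0.410). Aldoa was 850.4 and 441.0 CPM (0.519), Slc16a3 168.0 and 93.4 CPM (0.556) and Bnip3 68.3 and 39.9 CPM, a ratio of 0.585 (0.443 to 0.764). Pfkfb3, which was far lower in cluster 11, was 25.2 and 30.8 CPM here, a ratio of 1.22 (0.854 to 1.73), and Egln3 was 8.31 and 5.94 CPM, a ratio of 0.715 (0.320 to 1.49). Neutrophil markers summed to 1448.5 and 58.8 CPM in these cells, and their part in the ratios was not tested.

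**Figure D3:**
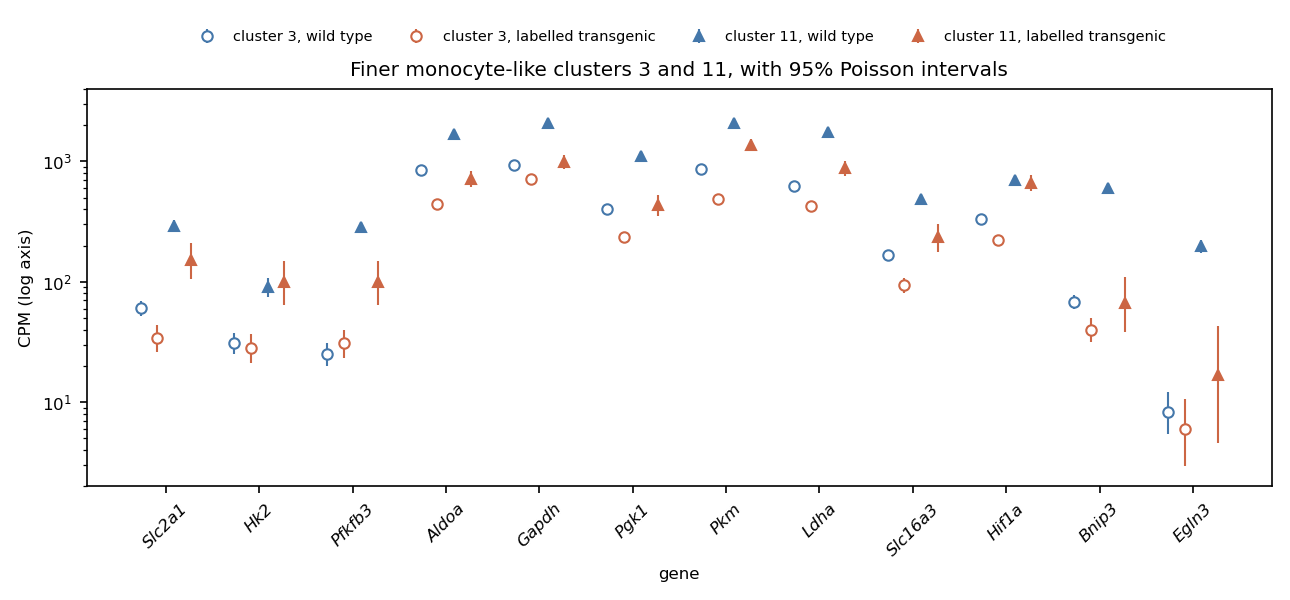
Levels (CPM, log axis, with 95% Poisson intervals) of 12 of the genes in finer monocyte-like clusters 3 (circles) and 11 (triangles) in wild type (blue) and in the library labelled transgenic (red). Bnip3 and Egln3 stand at 604.7 and 198.3 CPM in wild type cluster 11 and at 67.1 and 16.8 CPM in the other library, while Hif1a (698.6 and 666.4 CPM) and Hk2 (90.1 and 100.6 CPM) nearly coincide there.

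In macrophage-like cells, the cells the transgene is described for, fewer of the genes were lower and by less. These were 664 wild type and 1106 transgenic-labelled cells. Of 30 genes counted, 13 were at least 1.5-fold lower in the library labelled transgenic and 1, Hk1, was higher, where 8.52% and 8.66% of all 10213 genes were. The median log2 ratio was -0.52 for the set and -0.04 for all genes, and the summed level 3396.9 and 2372.6 CPM, a ratio of 0.698. The upper and the lower pathway parted: the 4 genes of glucose entry and trapping summed to 78.2 and 85.4 CPM, a ratio of 1.09 (0.906 to 1.32), and the 5 of the phosphofructokinase step to 334.0 and 320.6 CPM, a ratio of 0.960, but the 8 of lower glycolysis to 1877.6 and 1247.1 CPM, a ratio of 0.664.

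Hk1 was 12.4 CPM in wild type macrophage-like cells and 26.9 CPM in those of the library labelled transgenic, from 28 and 99 UMIs, a ratio of 2.16 (1.41 to 3.41). Hk2 did not move with it, at 36.9 and 36.6 CPM, a ratio of 0.993 (0.750 to 1.32), so Hk1 was 17.4% (11.9 to 24.1) and 29.5% (24.6 to 34.7) of the hexokinase molecules. Hk1 is also the main hexokinase of lymphoid cluster 4, at 50.1 and 51.7 CPM, and summed T cell markers (ratio 2.28) and NK and innate lymphoid markers (ratio 3.46) were higher in the same macrophage-like cells; their part in the Hk1 ratio was not tested. Slc2a1 was 23.5 and 15.5 CPM, a ratio of 0.657 (0.444 to 0.973). Gpi1 and Pfkp had ratios of 0.981 and 0.990, and Pfkfb3 was 36.0 and 42.0 CPM, a ratio of 1.17 (0.888 to 1.55), unlike in monocyte-like cells. Pfkl (0.713) and Pfkfb4 (0.871) lay between.

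Below that step, Tpi1 was 145.7 and 67.8 CPM in macrophage-like cells, a ratio of 0.465 (0.393 to 0.550), and Pgk1 143.0 and 87.3 CPM, a ratio of 0.611 (0.522 to 0.715). Aldoa was 320.6 and 207.8 CPM (0.648, 0.585 to 0.718), Pkm 269.1 and 162.5 CPM (0.604) and Gapdh 689.7 and 496.3 CPM (0.720). Aldoc was at 0.662 from 12 and 13 UMIs, with an interval of 0.278 to 1.59. Ldha was 343.3 and 230.3 CPM, a ratio of 0.671 (0.608 to 0.740), a little short of the limit, as Pgam1 was at 0.687. Slc16a3 had the lowest ratio of the counted genes, at 36.9 and 13 CPM, 0.353 (0.242 to 0.510), and made up 87.4% (79.0 to 93.3) and 59.3% (47.8 to 70.1) of the molecules of Slc16a3 and its relative Slc16a1.

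Of the oxygen-responsive genes in macrophage-like cells, Hif1a was 220.7 and 130.7 CPM, a ratio of 0.592 (0.521 to 0.673). Ndrg1 was 24.4 and 8.68 CPM, a ratio of 0.355 (0.222 to 0.559), Ddit4 48.4 and 23.1 CPM (0.476, 0.354 to 0.638), Bnip3 35.5 and 17.6 CPM (0.496, 0.352 to 0.697) and P4ha1 63.1 and 32 CPM (0.508, 0.394 to 0.652). Egln3 had only 4 and 10 UMIs in these cells, so the low ratio of the monocyte-like cells had no counterpart that could be seen. Bnip3l (0.926), Egln1 (0.763), Higd1a (0.727), Mxi1 (0.705) and Pdk1 (0.802) stayed within the limits. In monocyte-like cells Egln3 and Bnip3 stood furthest out. Whether the order of sizes differed in macrophage-like cells cannot be told, because Egln3 had too few UMIs to be counted there. By value alone Bnip3 was less far out there than Slc16a3 (0.353, 0.242 to 0.510) and Ndrg1. The intervals of Slc16a3 and Ndrg1 overlap that of Bnip3.

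Transcripts of other cells moved with these ratios too. In macrophage-like cells monocyte markers summed to 2000.2 and 903.7 CPM, with 7 of 10 lower, and neutrophil markers to 511.6 and 89.8 CPM, with 7 of 10 lower, 1 higher and Camp at 0 in the library labelled transgenic. Neutrophil RNA at those shares would carry 2.38 and 0.925 CPM of Slc16a3 and 0.431 and 0.140 CPM of Bnip3, against 36.9 and 13 and 35.5 and 17.6 CPM measured; the part of monocyte RNA was not tested. T cell markers went the other way, from 243.4 to 554.9 CPM (9 of 10 higher), as did those of NK and innate lymphoid cells, from 99.5 to 344.2 CPM (9 of 10 higher, Ncr1 at 0 in wild type). In finer macrophage-like cluster 1, with 594 and 1003 cells, 8 of 29 genes were lower and 1, Hk1, higher, where 8.50% and 8.68% of all genes were, with a median log2 ratio of -0.42. Slc16a3 (0.321, 0.208 to 0.488), Ndrg1 (0.349) and Tpi1 (0.522) had low ratios there too, Hk1 had 1.98 (1.27 to 3.17), and Aldoa, Pgk1 and Pkm stood at 0.713, 0.692 and 0.680.

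In neutrophil-like cells the scale itself matters. These were 648 wild type and 167 transgenic-labelled cells with median depths of 3527.0 and 1749.0 UMIs, and their 10 marker genes took up 261263.4 and 104511.7 CPM. The median ratio over all 6048 genes was 1.55, and 10.2% of them were at least 1.5-fold lower and 52.1% higher. On the plain CPM scale 11 of 29 genes of the set were lower (Hk1, Gpi1, Pfkfb3, Aldoa, Tpi1, Gapdh, Pgk1, Pkm, Ldha, P4ha1 and Mxi1) and 2 higher (Hk2 and Ndrg1). Relative to the median of all genes 22 were lower and 1, Ndrg1, higher. The 10.2% and 52.1% belong to the plain CPM scale, and no share of all genes is given for this other scale. Tpi1 was 342.6 and 148.3 CPM, a ratio of 0.433 (0.318 to 0.577), Ldha 1168.5 and 617.4 CPM (0.528) and Pkm 1347.7 and 750.5 CPM (0.557). The most neutrophil-restricted members differed little in CPM: Slc16a3 was 1215.4 and 1077.4 CPM, a ratio of 0.886 (0.792 to 0.990), and Slc2a3 252.2 and 260.3 CPM, a ratio of 1.03 (0.814 to 1.29). Against the median of all genes these become 0.573 and 0.667. Ndrg1 was 23.7 and 57.5 CPM, from 60 and 19 UMIs, a ratio of 2.43 (1.37 to 4.12), and Hk2 20.1 and 39.3 CPM, a ratio of 1.95 (0.975 to 3.65). Markers of other cell types were higher in the neutrophil-like cells of the library labelled transgenic: macrophage markers summed to 886.6 and 2720.7 CPM (10 of 12 higher), T cell markers to 37.5 and 314.7 CPM (10 of 10), NK and innate lymphoid markers to 65.5 and 438.8 CPM (7 of 10), mast cell markers to 39.1 and 296.6 CPM (7 of 10) and epithelial markers to 404.6 and 1770.4 CPM (9 of 10). Their part in the ratios was not tested. Bnip3 (0.743) and Egln3 (0.742) were within the limits in CPM and at 0.480 and 0.479, under the lower limit, relative to the median of all genes.

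Dendritic-like cells, 132 and 282 in number, had 13 of 29 genes lower and 2 higher (Aldoc and Egln1), where 11.4% and 11.5% of all genes were, and a median log2 ratio of -0.54. Slc16a3 was 43.4 and 6.89 CPM, from 30 and 11 UMIs, a ratio of 0.159 (0.0718 to 0.326), and Bnip3 49.2 and 13.8 CPM, a ratio of 0.280 (0.156 to 0.493). Slc2a1 (28.9 and 8.14 CPM, 0.282) and Tpi1 (167.7 and 66.4 CPM, 0.396) were also lower. Hk1 was 31.8 and 10.0 CPM, a ratio of 0.315 (0.155 to 0.628), opposite to macrophage-like cells. Neither higher gene was clear of counting error: Aldoc had 1.80 (0.770 to 4.85) and Egln1 1.82 (0.668 to 6.18). Neutrophil markers summed to 228.4 and 11.9 CPM in these cells, and at that share would carry 1.06 and 0.123 CPM of Slc16a3.

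Among lymphoid cells the summed set was lower in coarser cluster 4 (455 and 741 cells), which carried the highest summed level of the lymphoid and B-like clusters, 4949.2 and 3518.2 CPM. By role, summed ratios were 0.661 for lactate and pyruvate, 0.688 for lower glycolysis and 0.715 for hypoxia-induced mitochondrial and stress genes. HIF-1 alpha and its oxygen sensors had 0.776 and the phosphofructokinase step 0.802. Glucose entry and hexokinases, at 0.970 (0.801 to 1.18), and collagen hydroxylases, at 0.849 (0.596 to 1.21), had intervals that include 1. There 10 of 30 genes were lower and 0 higher, where 8.27% and 8.22% of all genes were. Ddit4 was 216.2 and 78.0 CPM, a ratio of 0.361 (0.303 to 0.428), Pkm 559.2 and 314.5 CPM (0.562), Aldoa 777.6 and 497.7 CPM (0.640), Ldha 709.4 and 464.8 CPM (0.655) and Tpi1 182.0 and 98.6 CPM (0.541). Hif1a was at 0.721, and Hk1, the hexokinase of these cells, at 50.1 and 51.7 CPM, a ratio of 1.03. With the finer clusters in it weighted equally, 6 were lower and 1 higher, and no share of all genes is given for that weighting. Finer clusters differed: lower glycolysis had a ratio of 0.887 (0.837 to 0.940) in finer cluster 4, led by Xcl1 and Gzma (291 and 722 cells). In the Il17a-led finer cluster 8 (242 and 359 cells) it was 0.667 (0.634 to 0.702). The 33 genes summed to 3162.8 CPM in wild type finer cluster 4 and 6765.9 CPM in wild type finer cluster 8. The part of this make-up in the ratios of coarser cluster 4 was not tested. NK and innate lymphoid markers summed to 4087.9 and 6123.5 CPM in cluster 4, neutrophil markers to 351.0 and 33 CPM (9 of 10 lower) and fibroblast markers to 72.8 and 21.4 CPM (10 of 10 lower), and their part was not tested. In lymphoid cluster 2 (489 and 1065 cells, led by Lef1, Calca and Dapl1) 4 of 30 were lower (Hif1a, Egln3, Ndrg1 and Ankrd37) and 1, Bnip3, higher, where 7.31% and 10.7% of all genes were. Hif1a was 286.5 and 183.9 CPM there, a ratio of 0.642 (0.559 to 0.738), while Gapdh was 292.8 and 346.3 CPM, a ratio of 1.18 (1.05 to 1.34).

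B-like cells, the most numerous at 2410 and 2236, had 2 of 30 genes lower and 1 higher, where 5.61% and 7.22% of all genes were, so the set's share was near that of all genes. Their Hif1a was 86.5 and 86.5 CPM and their Gapdh had a ratio of 1.01. Egln1 was 6.18 and 11.8 CPM, a ratio of 1.91 (1.26 to 2.93). Slc16a3, at 4.12 and 0.923 CPM from 26 and 5 UMIs, had a ratio of 0.224 (0.0672 to 0.593), and neutrophil RNA at the share given by the neutrophil markers would carry 2.43 and 0.255 CPM of it. At that level Slc16a3 in B-like cells cannot be told apart from RNA of other cells. The median log2 ratio of the set was -0.22.

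Coarser cluster 5 (356 and 501 cells) was close to the monocyte-like cells in its ratios. Mast cell proteases lead it, but only 2.53% and 3.79% of its cells held at least 3 protease UMIs, so it is named by number. There 23 of 30 genes were lower and 0 higher, where 14.8% and 13.1% of all genes were, with a median log2 ratio of -1.06. Bnip3 was 128.7 and 19.0 CPM, a ratio of 0.148 (0.0770 to 0.265), Egln3 40.4 and 2.72 CPM from 22 and 2 UMIs, and Pkm 645.1 and 220.3 CPM, a ratio of 0.342. Finer cluster 7 (300 and 420 cells) gave a like count: 22 of 26 were lower and 0 higher against 17.5% and 13.5% of all genes. Neutrophil markers summed to 3685.1 and 152.3 CPM and monocyte markers to 4523.2 and 2255.1 CPM in coarser cluster 5, and their part was not tested.

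Across the coarser clusters some members differed almost everywhere and others in a few. Tpi1, Pkm, Aldoa, Ldha, Gpi1 and Ddit4 had a ratio below 1 in all 10, and Tpi1, Pkm and Hif1a were at least 1.5-fold lower in 7 of 10. Slc16a3 was at least 1.5-fold lower in 6 of the 8 clusters where it could be counted, with neutrophil-like cells at the high end. Pfkp, Slc2a3 and Hk2 were that much lower in 0 clusters, and Hk2 was higher in 1. The clusters share libraries, so they are not independent looks at a genotype difference.

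**Figure D4:**
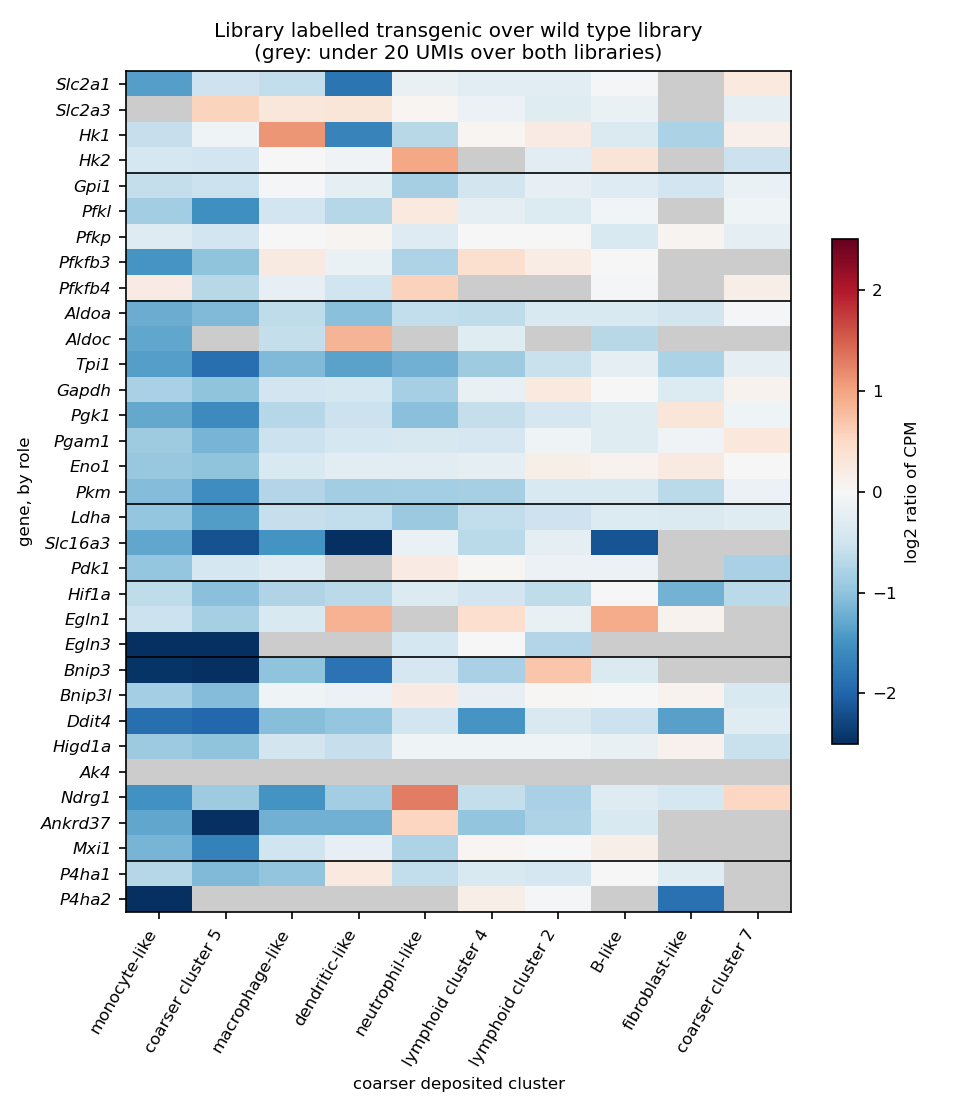
log2 ratio of CPM, library labelled transgenic over wild type, for each gene (vertical axis, by role) in each coarser cluster (horizontal axis); grey marks under 20 UMIs over both libraries, colours stop at 2.5 either way, and P4ha2 in monocyte-like cells (0 UMIs in the library labelled transgenic) is drawn at that end. Blue fills the columns of monocyte-like cells and cluster 5, and Hk1 is red in macrophage-like and blue in dendritic-like cells.

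At the level of cells, the wild type part of cluster 11 was both higher and more spread out. After a draw of 1000 UMIs from every cell, with shallower cells set aside (1 of 217 and 0 of 51), the 33 genes gave a median of 17.0 UMIs per cell in wild type and 8.0 in the library labelled transgenic, with 10th to 90th percentiles of 5.0 to 30.0 and 5.0 to 14. The 10th percentiles thus coincide, while the 25th percentiles (10.0 and 6.0), the medians and the upper ends do not. In cluster 3 the medians were 6.0 and 4.0, in neutrophil-like cells 9.0 and 6.0, in lymphoid cluster 4 4.0 and 3.0, in macrophage-like cells 3.0 and 2.0 and in B-like cells 2.0 and 2.0. Macrophage-like cells with none of the 33 among the 1000 UMIs were 5.99% of wild type and 13.2% of transgenic-labelled cells.

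Shares of cells with a UMI followed the same lines. Bnip3 was seen in 65.4% of wild type and 25.5% of transgenic-labelled cells of cluster 11, or 40.3% and 11.8% after thinning. In B-like finer cluster 0, which serves as a low-level comparison, it was seen in 4.07% and 2.95%, or 1.97% and 1.27% after thinning. Egln3 was seen in 39.2% and 5.88% of cluster 11, against 0.331% and 0.161% of the B-like cluster. After thinning those shares were 15.3% and 3.92%, and 0.0963% and 0.110%. Slc2a1 was seen in 68.7% and 47.1% of cluster 11, where median depths were 6398.0 and 4615.0 UMIs, but in 24.1% and 19.6% after thinning, against 3.03% and 3.47% of the B-like cluster. Slc16a3 was seen in 82.9% and 73.2% of neutrophil-like cluster 5, at median depths of 3543.0 and 1753.0 UMIs, and in 60.1% and 58.7% after thinning, against 0.337% and 0.165% of the B-like cluster. For Slc16a3 in cluster 5 most of the gap in these shares was thus gone at equal depth. For Slc2a1 in cluster 11 thinning lowered both shares and most of the gap went too. Whether the remaining gap, with 51 cells in the library labelled transgenic, exceeds counting error was not tested. Its level there, which is scaled to depth, was 292.9 and 150.9 CPM.

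**Figure D5:**
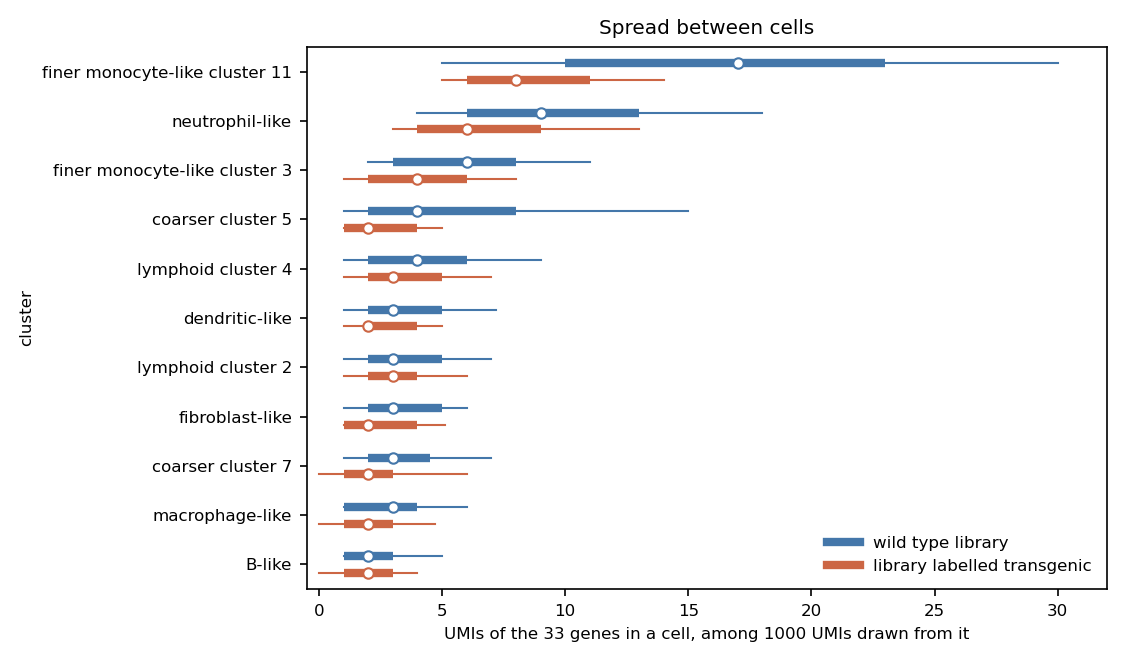
UMIs of the 33 genes per cell after drawing 1000 UMIs from each cell (horizontal axis), by cluster, for wild type (blue) and the library labelled transgenic (red); points are medians, thick bars the middle 50% of cells and thin bars the 10th to 90th percentile. The wild type cells of cluster 11 reach a 90th percentile of 30.0 UMIs, against 14 in the other library.

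The deposited cells leave out barcodes with 2200 or more genes, which hold the most RNA. Such barcodes that had under 5% of mitochondrial and of immunoglobulin UMIs, as nearly all deposited cells do, numbered 1718 in wild type and 1290 in the library labelled transgenic and were put in the coarser cluster whose summed profile made their counts most likely, a step that gave 83.8% of 6691 held-out deposited cells their own cluster. In the 631 and 76 monocyte-like barcodes 20 of 32 genes had a ratio of 1/1.5 or less and 0 of 1.5 or more, where 14.4% and 15.7% of all genes did. The 20 include Ak4, with 20 and 0 UMIs, whose counts do not show a difference of that size, and the median log2 ratio was -0.79, or -0.77 with genes at 0 put at their bound. Bnip3 was 108.4 and 44.4 CPM there, a ratio of 0.409 (0.286 to 0.570), Pfkfb3 66.2 and 22.8 CPM (0.344) and Aldoa 1120.0 and 570.8 CPM (0.510), while Hk1 was at 1.18 and Pfkp at 1.19. In the 339 and 346 macrophage-like barcodes only 5 of 31 genes were lower (Tpi1, Pgk1, Pkm, Bnip3 and P4ha1) and 3 higher (Slc2a3, Hk1 and Pfkp), where 7.18% and 11.5% of all genes were. Hk1 was 14.1 and 25.4 CPM in these, a ratio of 1.80 (1.28 to 2.55), and Bnip3 35.4 and 15.5 CPM (0.438), but Slc16a3 was at 0.679, Hif1a at 0.847 and Ndrg1 at 1.43 (0.870 to 2.37), so the ratios of these last 3 were closer to 1 or above it in the RNA-rich barcodes. How many of the left-out barcodes held more than 1 cell is not known, and the part of such barcodes in the ratios was not tested.

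The rest of the pathway, 102 further genes in 5 lists, differed in macrophage-like and monocyte-like cells by list. In monocyte-like cells 9.05% of all genes were lower and 14.9% higher. Of the 27 other glycolysis genes and isoforms, 14 could be counted in monocyte-like cells, 7 were lower and 0 higher. Among those, Eno1b is a near copy of Eno1 and may share its reads, and Bsg chaperones the lactate transporters. Pentose phosphate genes (0 of 7 lower or higher) and those of pyruvate entry and the citric acid cycle (0 of 20) stayed within the limits, with median log2 ratios of -0.18 and -0.04. So did the other genes of the HIF pathway itself, 0 of 8, at -0.08. Among other hypoxia-induced genes 11 of 26 were lower and 1 higher. Ero1l, an oxidase of protein folding in the endoplasmic reticulum, was 180.7 and 31.4 CPM, a ratio of 0.174 (0.134 to 0.223). Fam162a, a mitochondrial HIF target, had 0.351, Gys1, a glycogen synthase, 0.191 and Il1rn, the interleukin 1 receptor antagonist, 0.392. Cxcr4, a chemokine receptor, was the exception at 197.2 and 354.7 CPM, a ratio of 1.80 (1.63 to 1.98).

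In macrophage-like cells, where 8.52% of all genes were lower and 8.66% higher, 4 of 15 other glycolysis genes were lower and 2 higher, 1 of 7 pentose phosphate genes (Pgd) and 2 of 20 genes of pyruvate entry and the citric acid cycle (Pdk3 and Suclg1) were lower, and 0 of 8 HIF pathway genes were past a limit. Of 26 other hypoxia-induced genes 4 were lower (Vegfa, Gys1, Gbe1 and Mif) and 3 higher, Rora and Zfp395 among them, with a median log2 ratio of 0.08. Vegfa, the growth factor of new vessels, was 50.6 and 14.9 CPM, a ratio of 0.295 (0.210 to 0.410). In neutrophil-like cells 10 of 19 genes of pyruvate entry and the citric acid cycle were higher and 0 lower, where 52.1% and 10.2% of all genes were. The share higher was thus near that of all genes, and the median log2 ratio of 0.69 was close to the 0.63 of all genes there.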

How the data were processed

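UMI counts per gene and barcode were deposited by the authors for 2 libraries, with a metadata table of the cells they kept and their clusters at 2 resolutions (0.4, coarser; 0.5, finer). Per the submitters' processing notes, Cell Ranger 5.0.0, Seurat 4.0 and the build mm10 were used; other steps are not given in the sources used here. The deposited clusters and genotypes, labels of no fixed unit, were taken from that metadata as deposited. The 33 genes and all lists were chosen with earlier results of these data known.

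For each library the counts of all cells in a cluster were added up and scaled to the total (CPM). The ratio has an exact conditional binomial 95% interval and a level an exact Poisson one. A gene was counted as lower or higher at 1.5-fold with at least 20 UMIs over both libraries, and the same was done over all genes. Depth was 20511285 and 19962473 UMIs in deposited cells (wild type, library labelled transgenic). With 1 library per genotype no test was made. Clusters were named from marker lists where at least 3 markers were raised 2-fold and their leading genes did not go against the name. The T-like class that was planned had no coarser cluster that could bear the name, and lymphoid cluster 4 is given in its place. Every gene of the set is given a value or counted. Those described in full in a class had at least 50 UMIs and the interval bound nearest to 1 furthest from 1, up to 8 each way, with Slc2a1, Hk2, Pfkfb3, Aldoa, Gapdh, Pgk1, Pkm, Ldha, Slc16a3, Hif1a, Bnip3 and Egln3 always given in macrophage-like and monocyte-like cells. Other listed genes were named by the same order, up to 5 each way; any further gene named was chosen after its values were seen. A listed gene that this order would name is not reported here. The neutrophil RNA calculation and the values relative to the median of all genes were chosen after seeing the data. A 2nd identifier of Aldoa, with 10 and 5 UMIs, was left out.

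Doublet scores (Scrublet in scanpy 1.11.5) called 0 and 2 barcodes by the automatic threshold, which did not work, so an alternative removed the 8% with the highest scores (788 and 811 barcodes). Scripts ran in python 3.11.15 with numpy 2.4.6, scipy 1.17.1, pandas 2.3.3 and matplotlib 3.10.9, and the ratio and its interval were tested on simulated data.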

Additional observations from a re-analysis of the deposited data

Results flagged for a closer look

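A pair of genes had ratios on opposite sides of 1 in different cell types, each with a counting interval clear of 1 on the plain CPM scale, and the difference was not tested because each genotype is 1 library. Hk1 had a ratio, library labelled transgenic over wild type, of 2.16 (1.41 to 3.41) in macrophage-like cells and 0.315 (0.155 to 0.628) in dendritic-like cells. In the same macrophage-like cells the summed T cell markers had a ratio of 2.28 and the NK and innate lymphoid markers 3.46, and their part was not tested.

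Ndrg1 had a ratio of 2.43 (1.37 to 4.12) in neutrophil-like cells, but 1.57 relative to the median of all genes there and 1.44 with median-of-ratios scaling, which is within the limits. It had 0.355 (0.222 to 0.559) in macrophage-like, 0.352 (0.267 to 0.456) in monocyte-like and 0.546 (0.305 to 0.989) in dendritic-like cells and 0.537 (0.321 to 0.887) in coarser cluster 5. With barcodes above the gene-number limit the dendritic-like ratio of Ndrg1 was 1.15.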

How the results depend on the processing

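No paired analysis was possible because there is 1 library per genotype, and there was no replicate to leave out. Over 11 alternatives the count of lower genes ranged from 6 to 19 in macrophage-like cells (13 as reported), 15 to 28 in monocyte-like (26), 2 to 22 in neutrophil-like (11), 6 to 15 in dendritic-like (13), 1 to 11 in lymphoid cluster 4 (10) and 1 to 7 in B-like cells (2). With 2-fold in place of 1.5-fold the lower genes were 6 in macrophage-like, 15 in monocyte-like, 2 in neutrophil-like, 7 in dendritic-like, 1 in lymphoid cluster 4 and 1 in B-like cells, and the higher genes 1 in neutrophil-like, 0 in dendritic-like and 0 in B-like cells; the stricter limit itself makes these smaller. In neutrophil-like cells scaling moved the split: 22 lower and 0 higher with median-of-ratios scaling, 20 and 1 with totals without the 20 highest genes, and 22 and 1 relative to the median ratio of all genes, which was added after seeing the data. No share of all genes is given for any of the alternatives here, in any cell type, so their counts have no background beside them. Higher genes there were 0 with a minimum of 100 UMIs, 1 with the mean of per-cell CPM and 4 in cells with at least 1000 UMIs. A minimum of 100 UMIs, which counts fewer genes, left 6 lower and 0 higher in dendritic-like cells, 6 lower in lymphoid cluster 4 and 1 lower in B-like cells. A minimum of 5 UMIs gave 2 higher in macrophage-like cells and 1 in lymphoid cluster 4. With finer clusters weighted equally 6 were lower and 1 higher in lymphoid cluster 4 and 7 lower and 3 higher in B-like cells, and the mean of per-cell CPM gave 1 higher in lymphoid cluster 4. With barcodes above the gene-number limit 2 were higher in macrophage-like and 1 in dendritic-like cells. Of 1958 gene ratios recomputed, 1834 stayed within the reported interval, 121 moved and 3 turned direction: Aldoc to 1.1 in macrophage-like cells (finer clusters weighted equally), and Aldoc to 0.836 and Ndrg1 to 1.15 in dendritic-like cells (with barcodes above the gene-number limit). The cause was not tested. Depth limits Egln3 and P4ha2 outside monocyte-like cells and Ak4 in every coarser cluster, and cluster 11 has 51 cells in the library labelled transgenic.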

Other observations

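Fibroblast-like cells, 103 in wild type and 107 in the library labelled transgenic, had the highest levels of P4ha1 and P4ha2 among the coarser clusters; among the finer ones wild type P4ha1 was about as high in monocyte-like cluster 11 (130.9 CPM) as in fibroblast-like cluster 12 (127.1 CPM). Their P4ha2 was 75.5 and 20.7 CPM, from 19 and 6 UMIs, a ratio of 0.274 (0.0895 to 0.713), while P4ha1 was 127.1 and 103.3 CPM, a ratio of 0.813. Ddit4 was 282.0 and 110.2 CPM there, a ratio of 0.391 (0.249 to 0.601), and Hif1a 242.3 and 106.8 CPM, a ratio of 0.441 (0.276 to 0.690). Epas1, which encodes HIF-2 alpha, made up 52.0% and 59.7% of the Hif1a and Epas1 molecules in these cells. Endothelial markers summed to 1973.9 and 930.1 CPM in them (5 of 6 lower), and their part in these values was not tested.

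Cxcr4, a chemokine receptor and hypoxia-induced gene, went the other way from most of the set in the clusters given here. It was 433.0 and 601.6 CPM in macrophage-like cells, a ratio of 1.39 (1.29 to 1.5), and 100.7 and 647.6 CPM in neutrophil-like cells, a ratio of 6.43 (5.34 to 7.75), where the median ratio of all genes was 1.55. In the same neutrophil-like cells summed T cell markers had a ratio of 8.39 and macrophage markers 3.07, while monocyte markers had 0.545. Their part in the Cxcr4 ratio was not tested. In B-like cells its ratio was 1.38, in lymphoid cluster 4 1.36 and in lymphoid cluster 2 1.57. In cluster 11 it was 50.7 and 222.1 CPM, a ratio of 4.38 (3.0 to 6.38), beside Ero1l at 542.7 and 58.7 CPM.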
